A study of Mus musculus with 9 samples.

Results

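Genes of glucose uptake, glycolysis, lactate export and the cellular response to low oxygen were followed in mouse pro-B cells in which the transcription factor EBF1 had been replaced. A set of 35 genes was used, and every array probe annotated with one of these genes, or with an older or newer name of it, was taken: 66 probes, of 41174 non-control probes and 21128 named genes on the array. After a filter on dim probes, 56 of the 66 probes and 32 of the 35 genes were measured. Of the other genes, Ldhb was well above background on 1 Mock array alone, and Egln3 and P4ha2 on no array.

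All 9 samples were pro-B cells transformed with Abelson murine leukaemia virus (A-MuLV), on a C57Bl/6 background, with loxP-flanked Ebf1 alleles and a tamoxifen-inducible Cre recombinase (Ebf1fl/fl;RERTCre). All groups received 4-hydroxy-tamoxifen (4-OHT, 2 μM), the drug that switches the Cre on; the source name of 1 EBF1wt sample (replicate 3) leaves the drug out, while its description mentions tamoxifen. In the EBF1wt group (3 arrays) the cells carried a retrovirus with full-length EBF1 and GFP (pmys-EBF1wt-IRES-GFP). In the EBF1ΔC group (3 arrays) the retrovirus encoded EBF1 without its C-terminal domain (pmys-EBF1ΔC-IRES-GFP). These cells received 4-OHT 24 h after transduction, were sorted for GFP 5 days after treatment and were used over 2 weeks later. The Mock group (3 arrays) was mock-transduced and was collected 4 days after 4-OHT, ahead of the cell death seen later. Mock therefore differs from both EBF1 groups in transduction, sorting and time in culture as well as in EBF1, and Mock arrays lay on other slides and had another scan day than all EBF1 arrays. These factors cannot be told apart in comparisons with Mock. The labels do not say that replicates were separate cultures, so the p-values measure the spread between these arrays, which may be technical.

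Glycolysis turns glucose into pyruvate in the cytosol, and lactate dehydrogenase turns pyruvate into lactate, which leaves the cell through monocarboxylate transporters. In low oxygen the prolyl hydroxylases that mark HIF-1α for destruction slow down. HIF-1 then raises transcription of glucose transporters, glycolytic enzymes and genes such as Vegfa and Bnip3, through a short DNA element with the core ACGTG or GCGTG. Proliferating B cell precursors are known for high glucose use, and MYC is another known activator of glycolytic genes.

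Promoter windows from RefSeq (build GRCm38, 300 bases each, 250 before and 50 after the annotated start) were found for 33 of the 35 genes, 47 windows in all. On either strand, ACGTG occurred in 26 of the 47 windows (55.3%), against 19.6% of 32851 windows of all genes. The letters GCGTG occurred in 28 (59.6%), against 32.4% of all windows. At least one of both occurred in 38 (80.9%), against 43.8%. The letters CCCNNGGG, the core of sites bound by EBF proteins, occurred in 9 (19.1%), against 13.7%. The windows of the 35 genes were richer in G and C (median 62.33%, against 52.67% for all windows), and the motifs hold CG; the part of base composition in these shares was not tested. A match is a run of letters and not a measured binding site. The 250 bases upstream of 4 genes on which the comparisons turn are shown, with each ACGTG or GCGTG on either strand in capitals (on the other strand they read CACGT and CACGC). Slc16a1 and Bnip3 were higher in EBF1wt than in Mock, and Ankrd37 and P4ha1 were lower, so genes that moved in opposite directions can be read side by side.
Bnip3: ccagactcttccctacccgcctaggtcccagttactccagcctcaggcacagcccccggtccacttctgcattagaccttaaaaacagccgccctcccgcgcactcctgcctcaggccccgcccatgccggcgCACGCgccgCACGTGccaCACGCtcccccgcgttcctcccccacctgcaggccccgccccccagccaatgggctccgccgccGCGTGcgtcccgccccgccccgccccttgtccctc
Slc16a1: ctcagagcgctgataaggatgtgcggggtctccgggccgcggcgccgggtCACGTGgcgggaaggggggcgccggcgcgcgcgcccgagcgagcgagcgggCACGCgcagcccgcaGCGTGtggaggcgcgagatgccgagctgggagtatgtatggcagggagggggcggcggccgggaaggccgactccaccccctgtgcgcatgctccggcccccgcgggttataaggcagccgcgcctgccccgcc
Ankrd37: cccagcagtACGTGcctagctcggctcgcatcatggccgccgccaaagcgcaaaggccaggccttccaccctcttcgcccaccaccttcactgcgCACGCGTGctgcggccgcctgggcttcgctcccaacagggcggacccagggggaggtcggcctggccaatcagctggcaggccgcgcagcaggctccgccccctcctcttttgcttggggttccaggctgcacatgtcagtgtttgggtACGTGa
P4ha1: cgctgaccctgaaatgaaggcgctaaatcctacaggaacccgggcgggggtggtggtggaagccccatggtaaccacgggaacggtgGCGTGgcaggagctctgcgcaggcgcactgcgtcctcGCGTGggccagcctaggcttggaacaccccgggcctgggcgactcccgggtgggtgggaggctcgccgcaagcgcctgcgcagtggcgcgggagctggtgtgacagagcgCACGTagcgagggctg
The windows lie at chr7:138909507-138909756 (minus strand), chr3:104638414-104638663 (plus strand), chr8:45999851-46000100 (minus strand) and chr10:59323046-59323295 (plus strand) in that order. All 4 hold both motifs. In the windows of Bnip3 and Slc16a1 the letters CACGTG occur, in which ACGTG reads on both strands and which is also the E-box sequence bound by MYC; CACGTG occurred in 6 of the 47 windows (12.8%), against 7.15% of all windows.

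Levels are given as the log2 of a probe's processed signal after subtracting the log2 of that array's 75th percentile, so 0 is the 75th percentile and each unit is a doubling; levels of different genes come from different probes and are not compared. Differences come from a limma model of all 9 arrays, fitted on 12037 genes, with Benjamini-Hochberg adjusted p-values over all of them. A gene was called, and is said to have risen or fallen, at an adjusted p under 0.05 and at least a 2-fold difference; standard errors (SE) are those of the model with 3 arrays a group.

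The 75th percentile of the arrays lay between 384 and 507.7 intensity units, and no spot was saturated. The share of probes well above background was higher on Mock arrays (54.3% to 56.9%) than on EBF1 arrays (50.7% to 53.4%). Ebf1 itself read 1.73, 1.47 and 1.17 on the Mock arrays, 3.17, 2.87 and 3.16 on EBF1wt and 3.81, 3.74 and 3.85 on EBF1ΔC; whether its probe lies in the deleted or truncated part is not given in the files, so this does not check the deletion. All 12 markers of pro-B cells tested, Vpreb1 and Igll1 among them, were well above background on all 9 arrays, but at unequal levels. They summed to 431 to 443 times the 75th percentile in Mock, 1300 to 1420 in EBF1wt and 1280 to 1400 in EBF1ΔC, and 8 and 6 of the 12 rose in EBF1wt and EBF1ΔC against Mock. Such sums weigh the brightest probes most, here those of Vpreb3, Vpreb1, Cd79b and Blnk. The 8 markers of mature B cells summed to 205 to 228 times the 75th percentile on Mock arrays, 21.4 to 29.9 on EBF1wt and 30.9 to 31.1 on EBF1ΔC, and 7 of the 8 fell in each EBF1 group. The 4 erythroid markers measured of 6 summed to 352 to 413 on Mock arrays, with Hbb-bt as the main part, and to 9.04 to 12.4 on EBF1 arrays. Of 7 myeloid markers only Lyz2 and Tyrobp passed, with sums of 2.29 to 2.71 in Mock, 0.51 to 2.73 in EBF1wt and 7.9 to 15.4 in EBF1ΔC. Lyz2 and Tyrobp moved in opposite directions, with differences from Mock of 5.16 and -5.92 in EBF1ΔC. Itgam, Csf1r, Mpo, Elane and Adgre1 did not pass. The 4 markers of T and NK cells that passed, of 8, summed to 3.69 to 4.34, 1.86 to 3.39 and 6.06 to 7.83 in the same order, and the 2 stromal markers of 5 to 0.0384 to 0.0808 in Mock and EBF1wt and 0.254 to 0.291 in EBF1ΔC. Members of these lists did not move together in EBF1ΔC against Mock. Klrd1 differed by 0.79, Cd3e by -0.40, Nkg7 by -1.50 and Cd3d by -3.49, and Sparc by 3.75 and Col1a2 by -0.65. Some of these values use signals below background. Nkg7 was well above background on no EBF1ΔC array and Cd3d on 1, and both passed the filter through Mock alone. Sparc was below background on all Mock arrays and passed through EBF1ΔC alone, where it is high. Set against the lowest signal called well above background, the bounds were -1.19 for Nkg7 and 3.31 for Sparc. A higher sum is thus not a rise of the whole list. The part of these marker shifts in the results on glycolysis and hypoxia genes was not tested, and in bulk RNA fewer cells of a type and less RNA per cell cannot be told apart.

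Against Mock, the EBF1wt cells showed a split within the set rather than a shift of the whole pathway. The glucose transporter Slc2a3, the isozymes Aldoc and Eno2, the lactate exporter Slc16a3 and the hypoxia genes Adm, Ankrd37 and P4ha1 fell. Hexokinase Hk1, the regulator Pfkfb3, the lactate transporter Slc16a1 and the hypoxia genes Bnip3 and Vegfa rose. Of 32 genes measured, 12 were called, 5 higher and 7 lower, where 19.4% of all genes tested were called (6.61% higher, 12.8% lower). The median difference of the 32 genes was -0.08, against 0.12 for all genes. Scaling arrays to their median added 0.70 to every EBF1wt difference from Mock, so smaller differences have no settled direction; with it 7 of the genes were higher and 4 lower, in place of 5 and 7. With normexp, as with the authors' deposited values, 5 were higher and 3 lower.

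Against the same Mock arrays, EBF1ΔC cells had 9 of the 32 genes called, 2 higher (Hk1 and Vegfa) and 7 lower (Slc2a3, Hk2, Aldoc, Eno2, Adm, Ankrd37 and P4ha1), where 18.1% of all genes were called (6.26% higher, 11.8% lower). The median difference was -0.32, against 0.10 for all genes. With array-median scaling, which added 0.55 here, the split was 6 higher and 5 lower. The split of calls over all genes moved with it too, from 796 higher and 1542 lower to 4590 and 791 for EBF1wt, and from 753 and 1423 to 3076 and 850 for EBF1ΔC. Both comparisons share the Mock arrays. At an adjusted p under 0.05 with no minimum difference, 20 genes passed for EBF1wt (7 higher, 13 lower), where 66.5% of all genes passed (39.5% higher, 27% lower). For EBF1ΔC 24 passed (6 higher, 18 lower), where 64.2% of all genes did (37.5% higher, 26.7% lower).

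**Figure D1:**
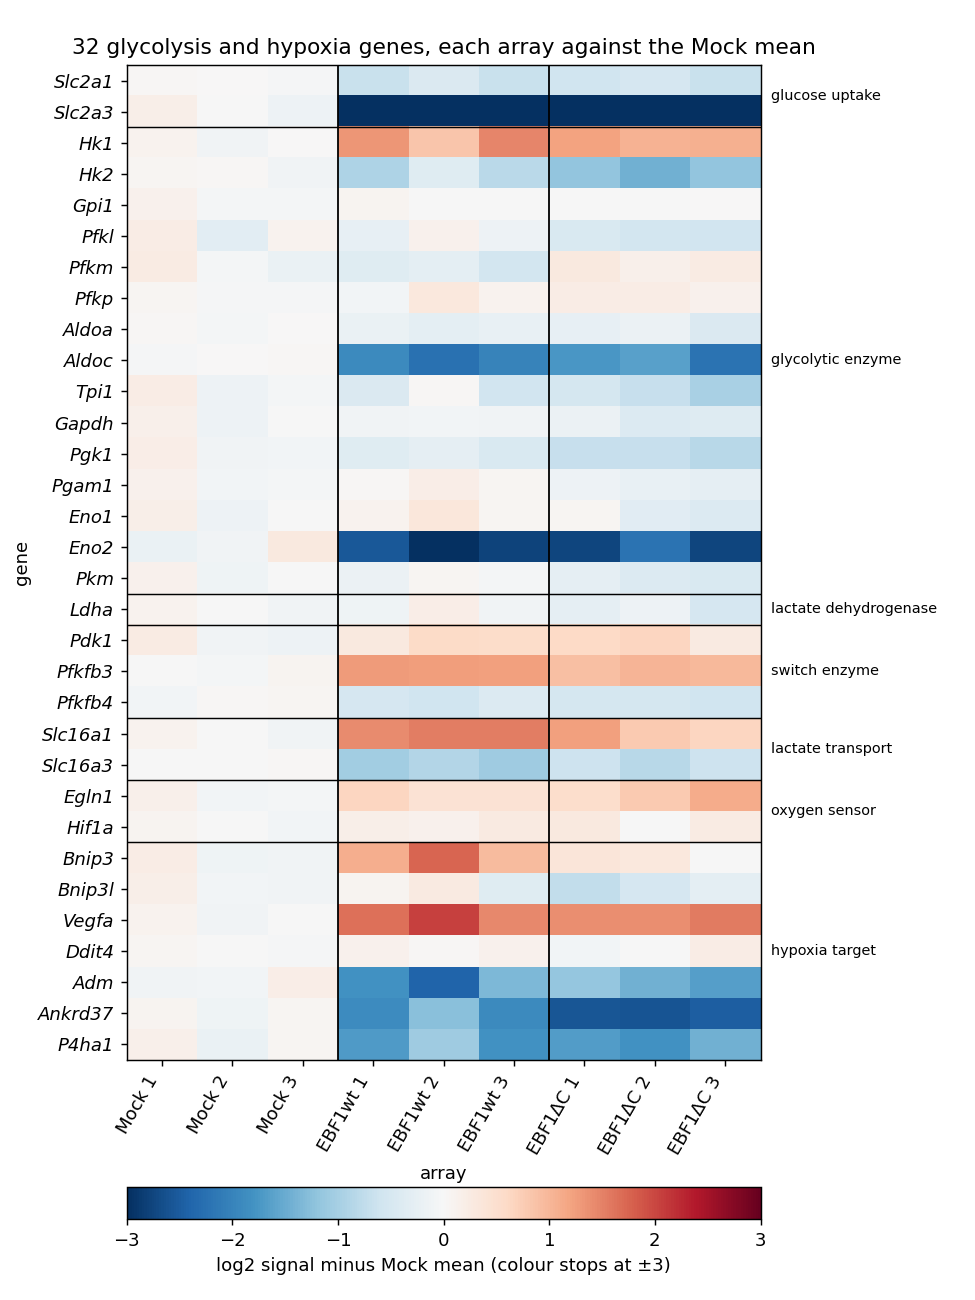
Heat map of the 32 measured genes (rows, by role) on the 9 arrays (columns); colour is the log2 signal minus the gene's Mock mean, and colours stop at 3 in either direction. Slc2a3, Aldoc, Eno2, Adm, Ankrd37 and P4ha1 are blue on all 6 EBF1 arrays, and Hk1, Pfkfb3, Slc16a1 and Vegfa are red on all 6.

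The facilitative glucose transporters parted in size. Slc2a3, which encodes the high-affinity transporter GLUT3, read 1.03, 0.84 and 0.71 on the Mock arrays. It read -5.57, -4.86 and -4.61 on EBF1wt and -4.61, -4.89 and -6.22 on EBF1ΔC. Every EBF1 array lay far below every Mock array, and the signal was well above background on 2 of 3 arrays in each EBF1 group. The probe thus passed the filter through the Mock arrays alone, where it is high, and the filter favours falls of such probes. The difference was -5.87 (SE 0.40, 58.6-fold, adjusted p = 8.32e-06) in EBF1wt and -6.10 (SE 0.40, 68.5-fold, adjusted p = 7.46e-06) in EBF1ΔC by limma, the largest of the set in both. These folds rest on dim signals in the EBF1 groups: with normexp the differences were -3.16 in both (8.95-fold and 8.94-fold), and with the authors' deposited values -2.97 and -2.96, all called. The other 2 Slc2a3 probes did not pass the filter. They were well above background on no Mock array, so the fall rests on 1 probe. Slc2a1, the widespread transporter GLUT1, was not called: its mean level was 2.91 ± 0.03 on Mock arrays, 2.32 ± 0.14 on EBF1wt arrays and 2.32 ± 0.07 on EBF1ΔC arrays (SD, n = 3), differences of -0.59 in both, which passed the adjusted p but not 2-fold.

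Hexokinases trap glucose in the cell as glucose 6-phosphate, and the 2 isozymes of the set moved apart. Hk1 read 0.69, 0.48 and 0.60 in Mock, 1.92, 1.42 and 2.06 in EBF1wt and 1.79, 1.64 and 1.67 in EBF1ΔC. Both EBF1 groups lay above Mock with no overlap. Hk1 rose by 1.21 (SE 0.15, adjusted p = 0.00022) in EBF1wt and by 1.11 (SE 0.15, adjusted p = 0.000372) in EBF1ΔC, and its 4 kept probes gave 1.00 to 1.79 in EBF1wt. Hk2, the isozyme induced by growth signals and hypoxia, read 1.96, 1.94 and 1.79 in Mock, 0.98, 1.54 and 1.08 in EBF1wt and 0.73, 0.47 and 0.71 in EBF1ΔC. The 3 groups formed steps without overlap, with Mock highest and EBF1ΔC lowest. Hk2 fell by 1.26 (SE 0.15, adjusted p = 0.000148) in EBF1ΔC, and its difference of -0.70 (SE 0.15, adjusted p = 0.00318) in EBF1wt was under 2-fold.

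The trunk enzymes of glycolysis showed small differences from Mock in EBF1wt cells. Gpi1, which converts glucose 6-phosphate to fructose 6-phosphate, read 7.68, 7.48 and 7.47 in Mock, 7.62, 7.53 and 7.53 in EBF1wt and 7.52, 7.53 and 7.56 in EBF1ΔC. The groups overlapped and the differences from Mock were 0.02 and -0.00 (SE 0.08). Ldha, the main lactate dehydrogenase subunit of glycolytic cells, read 7.30, 7.18 and 7.06 in Mock, 7.05, 7.38 and 7.08 in EBF1wt and 6.91, 7.02 and 6.67 in EBF1ΔC. EBF1wt overlapped Mock, and EBF1ΔC lay just below both. For the 7 genes acting from triose phosphate to lactate that were measured in all groups (Tpi1, Gapdh, Pgk1, Pgam1, Eno1, Pkm and Ldha), differences from Mock ran from -0.36 to 0.17 in EBF1wt and from -0.73 to -0.22 in EBF1ΔC. By limma 0 of the 7 were called in either comparison. An adjusted p under 0.05 was reached by 1 in EBF1wt, where 66.5% of all genes passed, and by 5 in EBF1ΔC, where 64.2% did. Array-median scaling moved all of the 7 above 0 for EBF1wt and 5 of 7 for EBF1ΔC.

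The phosphofructokinase subunits, which make up the enzyme of the committed step, did not share a pattern. Pfkm, the muscle-type subunit, read 1.44, 1.13 and 0.99 in Mock, 0.81, 0.90 and 0.62 in EBF1wt and 1.47, 1.33 and 1.44 in EBF1ΔC. EBF1wt lay below both other groups, which overlapped. Pfkl, the liver-type subunit, differed from Mock by -0.09 in EBF1wt and -0.52 in EBF1ΔC, and Pfkp, the platelet-type subunit, by 0.12 and 0.19 (SE 0.10 to 0.15); neither was called.

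The minor isozymes Aldoc and Eno2, both best known from neurons, fell in both EBF1 groups while Aldoa and Eno1 were not called. Aldoc read -1.45, -1.39 and -1.38 in Mock, -3.32, -3.64 and -3.41 in EBF1wt and -3.14, -3.04 and -3.61 in EBF1ΔC. Mock stood apart by more than the spread of any group: the difference was -2.05 (SE 0.15, adjusted p = 1.11e-05) in EBF1wt and -1.86 (SE 0.15, adjusted p = 2.01e-05) in EBF1ΔC. A second Aldoc probe gave -1.26 and -1.37. Eno2 read -4.77, -4.66 and -4.26 in Mock, where all 3 arrays measured it, and was not well above background on any EBF1 array. Set against the lowest signal called well above background, Eno2 was at least 1.68-fold lower in EBF1wt and at least 1.78-fold lower in EBF1ΔC. Its calls rest on the unbounded differences of -2.77 and -2.58 (adjusted p = 9.25e-06 and 1.52e-05 by limma), which use signals below background. Eno2 passed the filter through the Mock arrays alone, so the filter favoured a fall. With normexp background correction or the authors' deposited values, Aldoc, Eno2 and the dim gene Adm kept their direction but not a 2-fold difference.

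**Figure D2:**
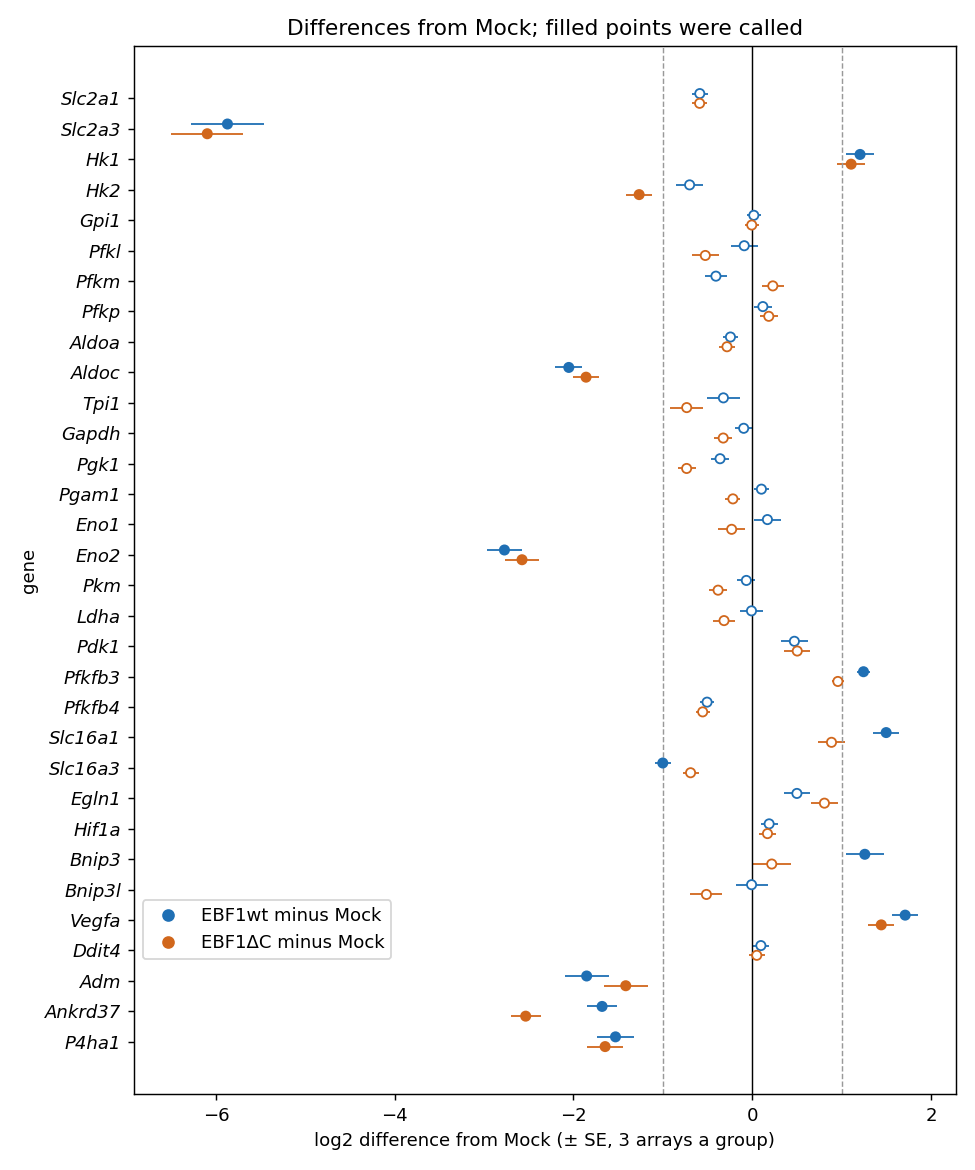
Differences from Mock for the 32 genes in EBF1wt (blue) and EBF1ΔC (orange), in log2 with SE; filled points were called and dashed lines mark 2-fold. Slc2a3 lies at -5.87 and -6.10, while the trunk enzymes from Tpi1 to Ldha, apart from Eno2, lie between -0.73 and 0.17.

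Among enzymes that set the rate and the fate of glycolytic carbon, Pfkfb3 rose. It makes fructose 2,6-bisphosphate, the main activator of phosphofructokinase. It read 2.20, 2.14 and 2.29 in Mock, 3.48, 3.45 and 3.44 in EBF1wt and 3.10, 3.22 and 3.18 in EBF1ΔC, and the 3 groups did not overlap. The difference was 1.25 (SE 0.07, adjusted p = 2.73e-06) in EBF1wt and 0.96 (SE 0.07, adjusted p = 1.26e-05) in EBF1ΔC, just under 2-fold; 3 probes ranged from 0.46 to 1.64 in EBF1wt. Pfkfb4, a related enzyme, differed by -0.50 and -0.55, opposite in sign, and was not called. Pdk1, the kinase that switches off pyruvate dehydrogenase and so keeps pyruvate from the mitochondria, differed by 0.47 and 0.50 (SE 0.15, adjusted p = 0.0201 and 0.0158) and was not called; a second Pdk1 probe gave 1.04 and 0.98.

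Of the lactate transporters, Slc16a1 rose, and a fall of Slc16a3 rested on the processing. Slc16a1 encodes MCT1 and read 3.85, 3.72 and 3.64 in Mock, 5.17, 5.28 and 5.26 in EBF1wt and 4.98, 4.52 and 4.38 in EBF1ΔC. EBF1wt lay highest and Mock lowest without overlap. Slc16a1 rose by 1.50 (SE 0.15, adjusted p = 5.19e-05) in EBF1wt, and its difference of 0.89 (SE 0.15, adjusted p = 0.000909) in EBF1ΔC was under 2-fold. Its 3 probes gave 1.45 to 1.94 in EBF1wt. Slc16a3 encodes MCT4, the exporter of strongly glycolytic cells, and read -3.57, -3.56 and -3.53 in Mock, -4.60, -4.43 and -4.63 in EBF1wt and -4.17, -4.39 and -4.17 in EBF1ΔC. Its difference in EBF1wt, -1.0 (SE 0.09, adjusted p = 3.29e-05), was at the 2-fold threshold and was not called without Mock replicate 3, EBF1wt replicate 1 or EBF1wt replicate 3. It was -0.35 with quantile normalization and -0.09 with both normexp and the authors' deposited values, none of them called. In EBF1ΔC it was -0.69 (SE 0.09, adjusted p = 0.000254), and 0.04 with normexp.

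No oxygen-sensing gene was called. Hif1a, the regulated subunit of HIF-1, had a mean level of 1.03 ± 0.08 on Mock arrays, 1.22 ± 0.06 on EBF1wt arrays and 1.21 ± 0.16 on EBF1ΔC arrays (SD, n = 3), and neither difference from Mock passed the test. HIF-1α is controlled mainly as a protein, which arrays do not measure. Egln1, the main oxygen-sensing prolyl hydroxylase (PHD2), differed from Mock by 0.50 (SE 0.15, adjusted p = 0.0156) in EBF1wt and 0.81 (SE 0.15, adjusted p = 0.00153) in EBF1ΔC, and was not called. A second Egln1 probe gave 0.83 and 1.25, and with the mean of both probes Egln1 would be called higher in EBF1ΔC (1.03, adjusted p = 0.000152 by limma).

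Known targets of the hypoxia response split into genes that rose and genes that fell. Vegfa, the angiogenic growth factor, read 3.20, 2.98 and 3.07 in Mock, 4.73, 5.12 and 4.53 in EBF1wt and 4.48, 4.47 and 4.63 in EBF1ΔC. Both EBF1 groups lay above Mock and overlapped each other. Vegfa rose by 1.71 (SE 0.15, adjusted p = 2.41e-05) and by 1.44 (SE 0.15, adjusted p = 6.44e-05); its 4 probes ranged from 0.89 to 1.71 in EBF1wt. Bnip3, a mitochondrial receptor for mitophagy, read 2.43, 2.05 and 2.10 in Mock, 3.28, 3.94 and 3.14 in EBF1wt and 2.56, 2.50 and 2.18 in EBF1ΔC. EBF1wt stood above both other groups, and EBF1ΔC overlapped Mock. Bnip3 rose by 1.26 (SE 0.21, adjusted p = 0.000958) in EBF1wt, while its difference in EBF1ΔC was 0.22 (SE 0.21, adjusted p = 0.39).

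Ankrd37, an ankyrin-repeat protein known as a HIF-1 target, read 1.99, 1.79 and 1.96 in Mock, 0.02, 0.66 and 0.01 in EBF1wt and -0.65, -0.67 and -0.55 in EBF1ΔC. The groups formed steps without overlap, with EBF1ΔC lowest. Ankrd37 fell by 1.68 (SE 0.17, adjusted p = 5.81e-05) in EBF1wt and by 2.53 (SE 0.17, adjusted p = 7.33e-06) in EBF1ΔC. P4ha1, a collagen prolyl hydroxylase, read 1.06, 0.71 and 0.96 in Mock, -0.79, -0.16 and -0.92 in EBF1wt and -0.77, -0.91 and -0.53 in EBF1ΔC. The EBF1 groups overlapped each other below Mock, with differences of -1.53 (SE 0.20, adjusted p = 0.00026) and -1.65 (SE 0.20, adjusted p = 0.000186). Adm, which encodes the vasodilator peptide adrenomedullin, read -2.14, -2.12 and -1.85 in Mock, -3.86, -4.43 and -3.38 in EBF1wt and -3.20, -3.47 and -3.68 in EBF1ΔC. Both EBF1 groups lay below Mock, by 1.85 (SE 0.25, adjusted p = 0.00028) in EBF1wt and 1.41 (SE 0.25, adjusted p = 0.00124) in EBF1ΔC. Ddit4, a stress-induced inhibitor of mTORC1, differed by 0.10 and 0.05 (SE 0.09), and Bnip3l, the relative of Bnip3, by -0.01 and -0.51 (SE 0.18); neither was called. A second Bnip3l probe gave 0.32 and -0.05.

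**Figure D3:**
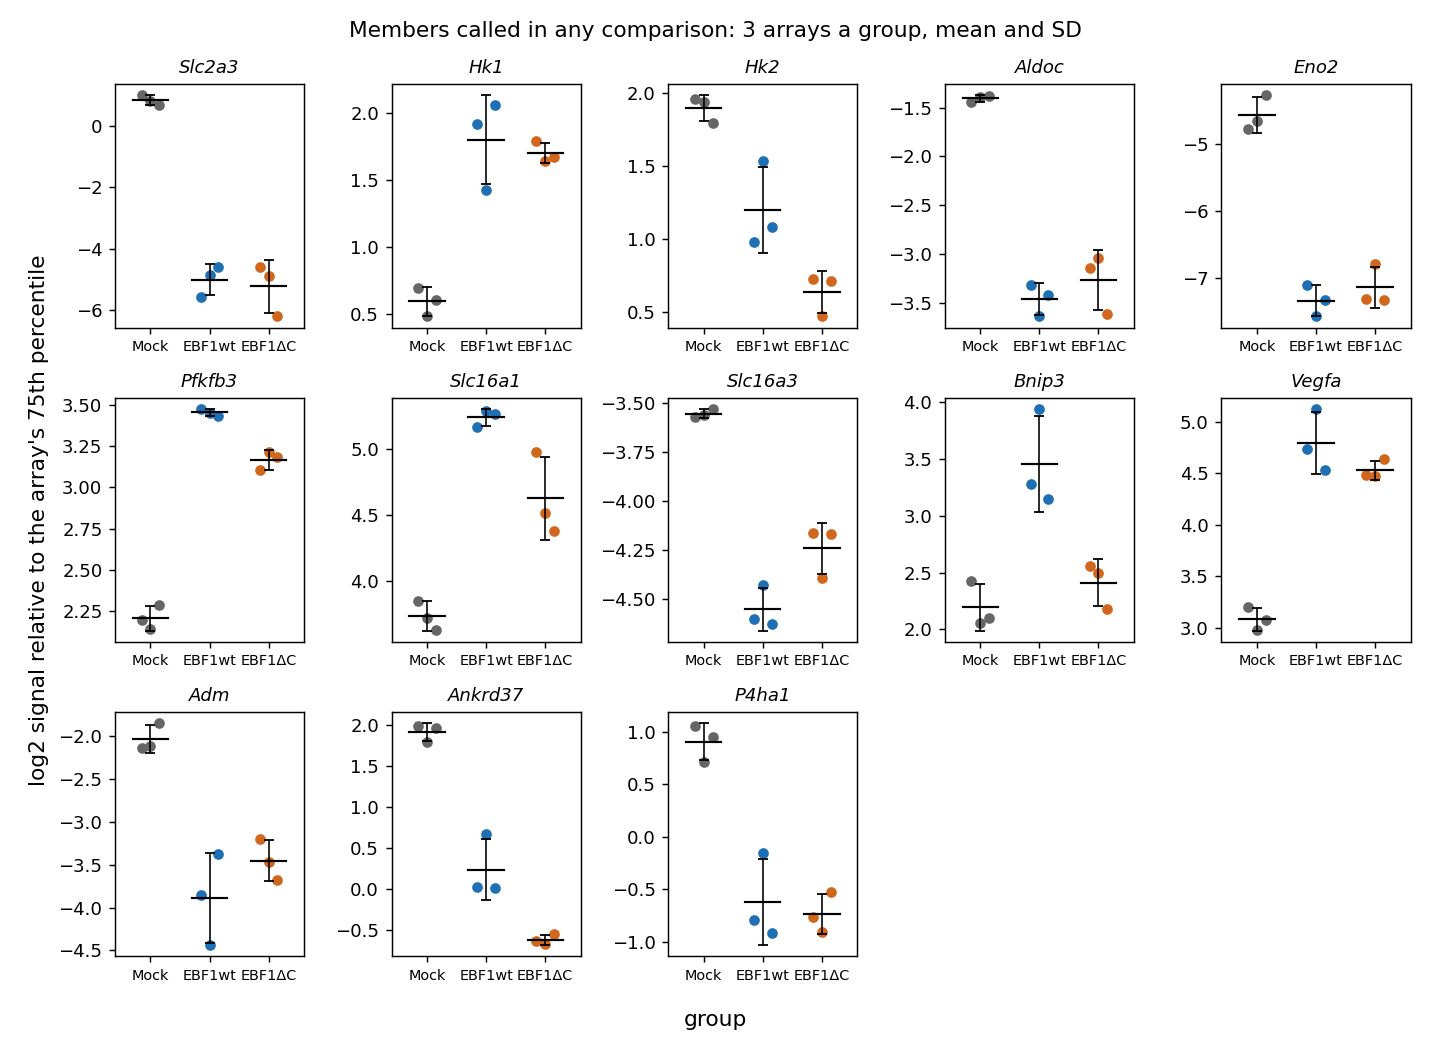
Log2 signal relative to the array's 75th percentile for the 13 genes called in any comparison, with 1 point per array, the group mean and its SD; the vertical axes differ between panels. Bnip3 is high in EBF1wt (3.14 to 3.94) and near Mock in EBF1ΔC (2.18 to 2.56), while Ankrd37 falls in 2 steps.

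The direct comparison of EBF1ΔC with EBF1wt sets cells with the 2 forms of EBF1 side by side. Both groups were transduced and sorted, and the labels give only a minimum time in culture for both. Ebf1 itself differed by 0.74 (adjusted p = 0.0193 by limma), with higher signal in EBF1ΔC. Markers of cell types differed too. In EBF1ΔC, of 12 pro-B cell markers 2 were called higher and 1 lower, and of 8 mature B cell markers 3 higher and 0 lower. The part of Ebf1 and of these markers in the other differences was not tested, so the C-terminal domain cannot be told apart from them. Of the glycolysis and hypoxia genes Bnip3 alone was called, lower in EBF1ΔC, by 1.04 (SE 0.21, 2.06-fold, adjusted p = 0.0212 by limma). That is 1 of 32 genes, where 2.72% of all genes were called (1.39% higher, 1.33% lower). The 3 EBF1ΔC arrays lay below the 3 EBF1wt arrays. EBF1wt replicate 2 was the highest Bnip3 array, and without it the difference was -0.80 (adjusted p = 0.0217), under 2-fold. Without EBF1ΔC replicate 1, 2 or 3 it was -1.11, -1.08 and -0.93, with adjusted p-values of 0.0513, 0.0582 and 0.0571. Slides held both groups in 2 cases: the difference was -1.76 on the slide with EBF1wt replicate 2 and -0.59 on the slide with EBF1wt replicate 3. With slide as a fixed block it was -1.17 (adjusted p = 0.187).

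A further 4 genes passed the adjusted p with under 2-fold, where 9.06% of all genes passed (4.1% higher, 4.95% lower). Ankrd37 differed by -0.85 (SE 0.17, adjusted p = 0.0186), with -1.22 and -0.65 within the shared slides. Slc16a1 differed by -0.61 (SE 0.15, adjusted p = 0.0368), with -0.90 and -0.28 within slides, and its other probes gave -0.70 and -0.85. Pfkfb3 differed by -0.29 (SE 0.07, adjusted p = 0.0393), and its other probes gave smaller differences of -0.05 and -0.20. Pfkm was the one with higher signal in EBF1ΔC, by 0.64 (SE 0.13, adjusted p = 0.0191), with 0.54 and 0.85 within slides. These genes and Bnip3 kept their sign within both shared slides.

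For the 7 genes from triose phosphate to lactate the differences were small and none passed the test. They were -0.41 for Tpi1 (triose phosphate isomerase), -0.23 for Gapdh, -0.37 for Pgk1 (phosphoglycerate kinase), -0.32 for Pgam1 (phosphoglycerate mutase), -0.40 for Eno1 (enolase), -0.32 for Pkm (pyruvate kinase) and -0.31 for Ldha. By limma 0 of the 7 passed the adjusted p, where 9.06% of all genes did. An unadjusted p under 0.05 was reached by 6, a share not taken over all genes, so it cannot be read as a result about the 7. The group of 7 genes was not among the lists set beforehand. The adjusted p by limma was 0.0537 for Pgk1 (SE 0.10), 0.0508 for Pgam1 (SE 0.08) and higher for the others. Pgk1 read 5.71, 5.82 and 5.63 in EBF1wt and 5.39, 5.39 and 5.26 in EBF1ΔC, after 6.27, 5.98 and 5.99 in Mock. Its groups formed steps without overlap. Within the slide shared by EBF1wt replicate 2 and EBF1ΔC replicate 3 the 7 differences ran from -1.01 to -0.31, and within the other shared slide from -0.24 to 0.04, with 5 of 7 below 0. Without EBF1wt replicate 2 they ran from -0.32 to -0.20. The 8 genes from hexokinase to aldolase had a median of -0.03, with 5 below 0 and 3 above. Over the 32 genes the median was -0.17, against -0.01 for all genes. In 11 of the 32 genes EBF1ΔC lay below EBF1wt with no overlap and in 2 above it, 40.6% in all, where 30.6% of all genes had no overlap (17.2% lower, 13.4% higher).

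**Figure D4:**
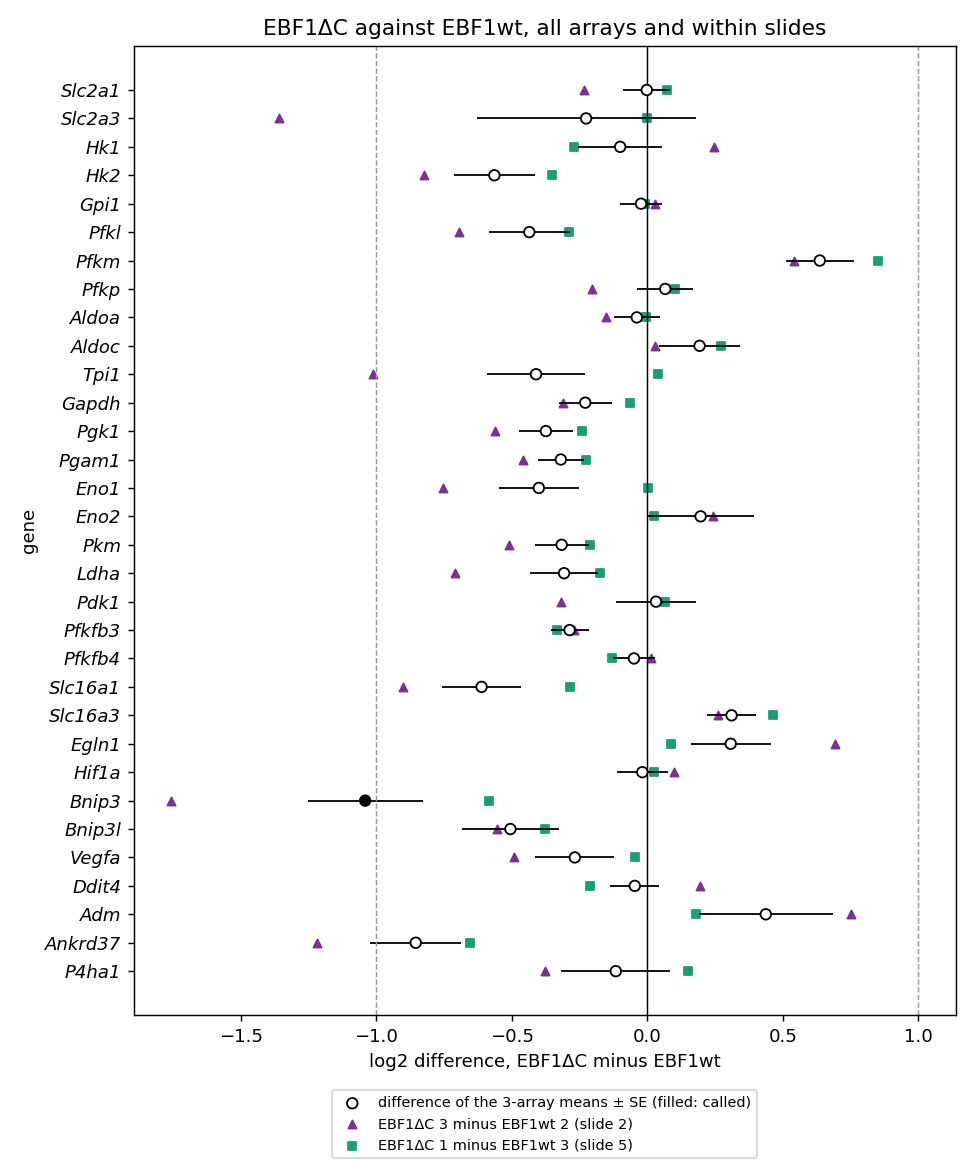
Difference of EBF1ΔC from EBF1wt for the 32 genes in log2: circles are differences of the group means with SE (filled if called), triangles and squares are single differences within the 2 slides that hold both groups. Bnip3 is the filled point at -1.04; Tpi1 to Ldha lie left of 0 apart from Eno2, with triangles further left than squares.

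Single arrays stood out within their groups. EBF1wt replicate 2 was the highest of its group in 20 of the 32 genes (62.5%, against 38.5% of all genes) and exceeded the mean of the other 2 by over 0.3 in 31.2% of them, against 12.2% of all genes. Mock replicate 1 was the highest of its group in 26 of 32 (81.2%, against 47% of all genes). Array weights fitted by limma on all genes were lowest for EBF1wt replicate 2 (0.367) and EBF1ΔC replicate 3 (0.487), the pair that shares a slide. Myc, given for its known role in glycolytic gene expression, read 4.48, 5.32 and 4.41 in EBF1wt and 3.20, 3.39 and 3.16 in EBF1ΔC, after 4.17, 4.04 and 3.92 in Mock. Myc fell by 1.49 (SE 0.22, adjusted p = 0.00602) from EBF1wt to EBF1ΔC, and EBF1wt replicate 2 was the highest array for it too. The part of Myc, of EBF1wt replicate 2 and of the slide in the differences of the glycolytic genes was not tested.

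Further genes of the same pathways were read for comparison. Of 27 other glycolysis and pyruvate genes measured, 4 fell and none rose in EBF1wt, while 3 fell and 1 rose in EBF1ΔC, where 19.4% and 18.1% of all genes were called. The lysosomal hexose transporter Slc2a6 fell in both, with differences of -4.80 and -4.30, and so did the muscle enolase Eno3, with -1.70 and -1.82. Pfkfb2, a further source of fructose 2,6-bisphosphate, fell by 1.09 in EBF1wt. Their medians were 0.22 in EBF1wt and 0.04 in EBF1ΔC. Of 30 other hypoxia response genes, 3 rose and 3 fell in EBF1wt, and 3 rose and 4 fell in EBF1ΔC, with medians of 0.13 and 0.06; these shares are near those of all genes. Angptl4, a lipase inhibitor, fell in both, with differences of -3.35 and -2.01, and so did Cited2, with -1.40 and -1.72. Bhlhe41 and Bhlhe40, related transcriptional repressors, moved apart: Bhlhe41 fell (-2.45 and -2.12), and Bhlhe40 rose (1.62 and 1.60). Of 7 pentose phosphate genes 0 were called by limma against Mock (5 in each comparison had an unadjusted p under 0.05, a share not taken over all genes). An adjusted p under 0.05 was reached by 4 in EBF1wt and 5 in EBF1ΔC, where 66.5% and 64.2% of all genes passed. Of 17 citric acid cycle genes 1 was called, the succinate dehydrogenase subunit Sdhb, which rose by 1.08 and 1.24. At an adjusted p under 0.05, 11 of the 17 were higher and 0 lower in EBF1wt, where 39.5% and 27% of all genes were. In EBF1ΔC 7 were higher and 2 lower, where 37.5% and 26.7% of all genes were. The medians of the 17 were 0.34 and 0.20, within the range that array-median scaling shifts. The remaining called genes of these lists, named after their values were seen, were Hk3 (lower in both), Ndrg1 and Gbe1 (higher in both), and Ero1a (lower) and Fbp1 (higher) in EBF1ΔC. Hk3 was not well above background on any EBF1 array, and its bounds were at least 1.74-fold lower in EBF1wt and 1.84-fold in EBF1ΔC. Fbp1 was well above background on 1 Mock array, 2 EBF1wt arrays and all 3 EBF1ΔC arrays. It passed the filter through EBF1ΔC alone, where it is high, so the filter favoured its rise. In the comparison of EBF1ΔC with EBF1wt, 0 of the 81 genes of these 4 lists were called by limma, where 2.72% of all genes were. An adjusted p under 0.05 was reached by 2 of the 81, where 9.06% of all genes passed. An unadjusted p under 0.05 was reached by 29, a share not taken over all genes.

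Probes of one gene disagreed for 3 trunk enzymes. Each of Pfkp, Tpi1 and Pkm has a probe designed on a cDNA-clone record. In EBF1wt these gave differences from Mock of -1.40, -1.38 and -1.62, where the probes that stand for the genes gave 0.12, -0.32 and -0.07. In EBF1ΔC they gave -1.74, -1.76 and -2.02, against 0.19, -0.73 and -0.38. Between EBF1ΔC and EBF1wt they gave -0.34, -0.38 and -0.40 against 0.07, -0.41 and -0.32. With the mean of all probes, Tpi1 would be called lower in EBF1ΔC than in Mock (-1.25). The Pgk1 probes carry coordinates on chromosome 3 in the array's mm9 annotation, while RefSeq places Pgk1 on chromosome X, so signal of a related copy cannot be told from that of Pgk1 itself.

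**Figure D5:**
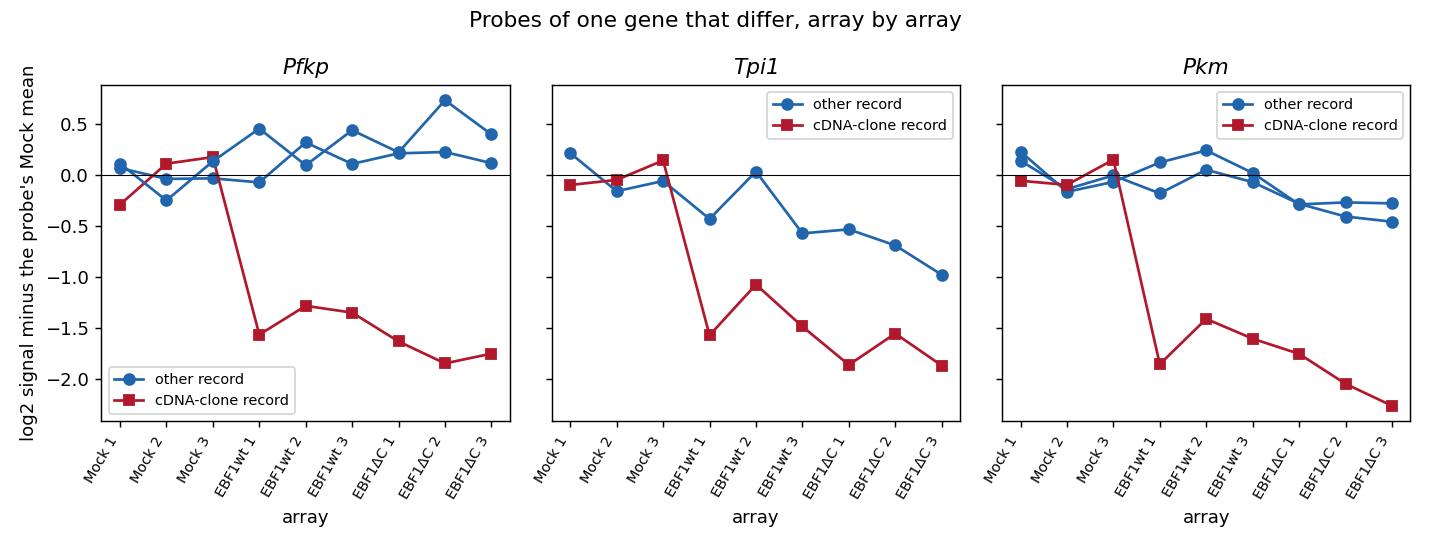
Log2 signal minus the probe's own Mock mean on the 9 arrays for each kept probe of Pfkp, Tpi1 and Pkm; red squares are probes on cDNA-clone records and blue circles are the others. The red lines drop by over 1 between Mock and all EBF1 arrays while the blue lines stay nearer 0.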

How the data were processed

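RNA of 9 samples was labelled with Cy3 and hybridised to 1-colour Agilent mouse arrays, per the labels' protocols. The authors deposited Feature Extraction files (version 10.5.1.1 per the file headers, 9.1 per the submitters' processing notes) with processed spot intensities, background-corrected by that software, and a table of log2 values, whose scale and centring no source used here states. The deposited log2 values correlated at 0.9992 to 0.9996 with quantile-normalized log2 of the spot signal plus 50.

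From the intensities, log2 of the processed signal minus each array's 75th percentile was taken, outlier spots were dropped and spots of a probe averaged. Probes were kept if well above background on all 3 arrays of any group, and a gene was represented by its kept probe of highest mean. Names came from RefSeq by accession (27471 probes), symbol (5484) or synonym (679), or from the files (1228); 6312 probes have none. limma 3.58.1 in R 4.3.3 fitted one mean per group, with 6 residual degrees of freedom. Tested on data simulated from these arrays for EBF1wt against Mock (11994 genes), it called 89 of 100 genes changed by 1.5 and 98 of 100 changed by 3 (log2).

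The genes and lists were chosen with earlier results of these data known. Genes named with values on every array are those called in any comparison and up to 4 uncalled core enzymes; from the other lists at most 3 called genes a comparison with the largest change, well above background in both groups, are named. Replicate numbers did not pair the samples (correlations of deviations from -0.18 to 0.12). The number of arrays limits the precision.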

Additional observations from a re-analysis of the deposited data

How the results depend on the processing

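Alternatives to the background correction, scaling, dim-probe filter, probe choice, blocks, moderation, thresholds and arrays used were run for each comparison. Against Mock, the counts of called genes stayed within 1.5 times of 12 for EBF1wt and 9 for EBF1ΔC, apart from these: with no minimum difference they were 20 and 24, and EBF1ΔC had 5 with normexp and 5 with the authors' values. For EBF1wt both of these left 5 higher and 3 lower, in place of 5 and 7. Leaving out single arrays gave 11 to 12 for EBF1wt and 9 to 10 for EBF1ΔC. For EBF1ΔC against EBF1wt, the 1 call became 0 with normexp, with no dim-probe filter, with the fixed slide block, with array weights, with only these groups fitted and at an adjusted p under 0.01; it became 2 with array-median scaling, which adds Ankrd37 (-1.01), and 5 with no minimum difference. Leaving out single arrays gave 0 to 1. In all of these Bnip3 stayed below 0, from -1.20 to -0.80. The Slc16a3 call in EBF1wt was lost with array-median scaling, normexp (-0.09), quantile normalization (-0.35) and the authors' values. Array-median scaling also ended the calls of Ankrd37 (-0.97) and P4ha1 (-0.82) in EBF1wt and of Hk2 (-0.72) and Adm in EBF1ΔC, and normexp or the authors' values that of Hk1 in EBF1ΔC (0.93 and 0.96). Over all genes, normexp called 1033 in place of 2338 for EBF1wt, 1041 in place of 2176 for EBF1ΔC and 129 in place of 327 between them; the cause was not tested. Called genes kept their sign in every alternative run. The replicate block changed no call and gave 12, 9 and 1; the numbers do not pair the samples. The random slide block and the within-slide values for EBF1ΔC against EBF1wt were chosen after seeing the data, and the former left 1 call. Probes near background, such as Eno2, have bounds only.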

Other observations

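The difference between probes on cDNA-clone records and other probes was also read over all genes, after its values for Pfkp, Tpi1 and Pkm had been seen. In 986 genes with a kept probe of each kind, the median difference of EBF1wt from Mock was -0.85 for probes on clone records and 0.16 for probes on RefSeq records. The clone probe was lower by at least 1 in 47.5% of these genes and higher by at least 1 in 1.93%. For EBF1ΔC against Mock the shares were 44.7% and 1.72%. Between EBF1ΔC and EBF1wt they were 0.71% and 0.811%.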
